A study of Mus musculus with 2 samples.

Results

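This account concerns the sites of Runx1 binding at 3 genes, Ebf1, Pax5 and Runx1 itself, in a mouse pro-B-cell line. The members are the peaks whose midpoint lay in 1 of 3 mm9 windows drawn around these genes. The Ebf1 window was 415 kb long, at chr11:44420000-44835000. The Pax5 window was 210 kb long, at chr4:44530000-44740000. The Runx1 window was 250 kb long, at chr16:92590000-92840000. The windows were set by position and not by peak values, though earlier results of these data were known when they were chosen. Together they held 10 of the 6792 peaks of the list (0.147%). No peak lay in the Ebf1 window, 3 lay in the Pax5 window and 7 lay in the Runx1 window.

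The peaks came from chromatin immunoprecipitation followed by sequencing, which recovers the DNA fragments that an antibody pulls down with a protein. There was 1 library made with a rabbit antibody against a peptide from the C-terminal end of Runx1, and 1 library made with rabbit IgG as its background. Both were from the line BMiFLT3(15-3), pro-B cells of a murine B-cell-precursor leukaemia, and the cells of both carried an introduced Runx1-ERt2 in addition to their own Runx1 gene. Per the labels' protocols, cells were given 0.2 µM tamoxifen, which brings the fusion protein into the nucleus, or ethanol, for 24 h, and the treatment of each library is not stated. The list was made from both libraries together, so it gives no level in IgG alone and does not tell apart the cell's own Runx1 and the fusion. Every value below comes from 1 library per arm of 1 cell line, so no value has an error between cultures and no p-value is given. Read depth is unknown.

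The 3 genes encode transcription factors that act early in the B lineage. Runx1 binds DNA as part of core-binding factor, with its partner Cbfb, and recognises the core sequence TGTGGT, or TGCGGT, through its Runt domain. Ebf1, early B-cell factor 1, is a DNA-binding protein that opens chromatin at B-cell genes and drives specification of the lineage. Pax5 is a paired-domain protein that commits progenitors to the B lineage and represses genes of other lineages. Ebf1 is known to act on Pax5, and Pax5 in turn on Ebf1.

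The sequences around the annotated starts of the genes are shown first, because these are the stretches in which the letters of a Runx core can be read without mm9 sequence. RefSeq promoter windows of GRCm38.p6 ran from 250 bases before to 50 bases after a gene start, and all 3 genes were matched, with 5 windows in all. The windows of Ebf1 and Runx1 that hold a core are printed with that of Pax5, which holds none, and capitals mark TGTGGT or its reverse complement ACCACA.
Ebf1, chr11:44617850-44618149, plus strand: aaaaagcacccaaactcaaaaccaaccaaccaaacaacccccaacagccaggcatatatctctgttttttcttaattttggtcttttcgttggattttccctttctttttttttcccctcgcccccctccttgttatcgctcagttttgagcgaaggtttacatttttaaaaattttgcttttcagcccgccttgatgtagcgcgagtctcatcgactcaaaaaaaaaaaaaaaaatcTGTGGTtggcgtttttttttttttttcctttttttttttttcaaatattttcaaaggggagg
Pax5, chr4:44710645-44710944, minus strand: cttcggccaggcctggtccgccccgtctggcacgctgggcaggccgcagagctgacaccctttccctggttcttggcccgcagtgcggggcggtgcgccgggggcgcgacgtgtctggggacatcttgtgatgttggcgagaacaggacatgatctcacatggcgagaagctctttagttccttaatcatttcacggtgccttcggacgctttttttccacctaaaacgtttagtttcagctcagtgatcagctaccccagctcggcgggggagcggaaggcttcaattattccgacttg
Runx1, upstream start, chr16:92826025-92826324, minus strand: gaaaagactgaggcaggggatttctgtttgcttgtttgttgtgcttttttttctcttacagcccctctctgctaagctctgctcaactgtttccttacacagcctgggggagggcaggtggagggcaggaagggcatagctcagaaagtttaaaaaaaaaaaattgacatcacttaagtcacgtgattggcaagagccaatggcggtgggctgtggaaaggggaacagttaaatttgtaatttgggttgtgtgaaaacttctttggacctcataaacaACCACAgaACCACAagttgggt

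The Ebf1 window printed here held 1 core, on the strand of the gene, at bases 239 to 244 counted from 1 at the 5′ end. The Runx1 window at the upstream start held 2 cores, both on the opposite strand, at bases 279 to 284 and 287 to 292, and thus just after the gene start. The other 3 windows held none, namely that of Pax5, the second window of Ebf1 (chr11:44619978-44620277) and the downstream window of Runx1 (chr16:92697280-92697579). Of all 32851 promoter windows, 16.8% held TGTGGT on either strand, 6.45% held TGCGGT and 22.4% held at least 1 of these cores, while 2.86% held 2 or more core matches. No match in the 5 windows overlapped another. The core of Ebf1-family sites, TCCC and GGGA separated by NN, was found in 0.904% of promoter windows and in 0 of these 5. These matches describe letters only. The promoter coordinates are of GRCm38.p6 and the peaks are of mm9, so a peak cannot be laid on a promoter here, and the same holds for exons and introns.

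The 3 windows differed in how many Runx1 peaks they held. The Runx1 window carried 7 peaks (exact Poisson 95% interval 2.81 to 14.4), or 28.0 per Mb (11.3 to 57.7), against 2.78 per Mb over chromosome 16 and 2.68 per Mb over chromosomes 1 to 19 and X. Its density was therefore 10.1 times that of its chromosome. The Pax5 window carried 3 peaks (0.619 to 8.77), or 14.3 per Mb (2.95 to 41.7), against 2.71 per Mb over chromosome 4, and its density was 5.27 times that of the chromosome. The Ebf1 window carried 0 peaks (0 to 3.69), or 0 to 8.89 per Mb, against 4.55 per Mb over chromosome 11. The chromosomal density lies below the interval in the window of Runx1 and inside it in the window of Ebf1. In the window of Pax5 it lies only just below, at 2.71 against 2.95 per Mb. The intervals hold for counting error alone and assume that each peak is a separate event, which is not so where peaks stand side by side. The 3 Pax5 peaks became 2 when intervals within 500 bp were joined and 1 within 2 kb. The 7 Runx1 peaks became 6 and 5. The Pax5 interval therefore does not set its window apart from the chromosome.

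To show how common such numbers are, each chromosome was divided into adjacent tiles of the same length as the window. Among tiles of 250 kb, 29.5% held at least 1 peak and 0.908% (92 of 10134) held the 7 peaks of the Runx1 window or more. Among tiles of 210 kb, 26.5% held at least 1 peak and 7.01% (845 of 12062) held the 3 peaks of the Pax5 window or more. Among tiles of 415 kb, 38.7% held at least 1 peak and 61.3% (3736 of 6099) held none, as the Ebf1 window did. On the genes' own chromosomes, 3 of 377 tiles on chromosome 16 held 7 or more, 51 of 719 tiles on chromosome 4 held 3 or more, and 130 of 285 tiles on chromosome 11 (45.6%) were empty. The Runx1 window thus stood among the most occupied stretches of its length, and an empty stretch as long as the Ebf1 window was more common than an occupied one over all chromosomes, though not on chromosome 11 itself. The tiles are a description of this list and no test of chance, and the windows were chosen for their genes.

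**Figure D1:**
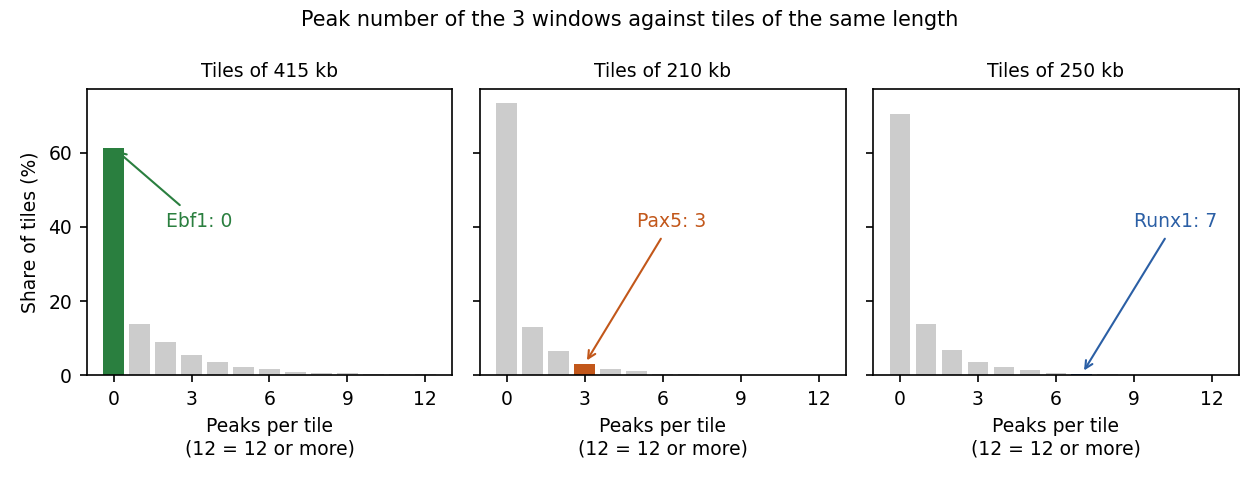
Share of tiles (%, y axis) by number of peaks per tile (x axis), for tiles as long as the Ebf1, Pax5 and Runx1 windows, with the coloured bar and arrow at the window's own number. Empty tiles are the most frequent class at each length, the Ebf1 window falls in that class, and 7 peaks lie far out in the tail.

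Ebf1 is the gene at which the list shows no Runx1 peak at all. The stretch without a peak reached well beyond the window. The nearest peak below it, at chr11:43582756-43583506, had a score of 64.79 and lay 836 kb from the window's edge. The nearest above it, at chr11:45661172-45662062, had a score of 54.75 and lay 826 kb away. Both are weak, at ranks 5517 and 6327 of the 6792 peaks, where rank 1 is the highest score. The peak-free stretch between them measured 2.08 Mb and was the 12th longest of 538 on chromosome 11, where the median stretch between neighbouring peaks was 62.0 kb. In the whole list, 286 of 6769 stretches (4.23%) were as long or longer. These ranks count stretches by number. A longer stretch takes up more sequence, so a fixed position falls in such a stretch more often than that share. The share of sequence in such stretches was not computed. The stretch was bounded by its neighbouring peaks, so its count of 0 was fixed and is not set against a density. At the mean density of chromosome 11, the window itself would hold 1.89 peaks. Of the chromosome's tiles of that length, 45.6% were empty. The numbers that the authors' caller gave to the peaks run from 1 to 6792 with none missing. This does not show whether any peak was dropped before the numbering. A site weaker than the caller's limit would not be listed, so the data show that no peak was called at Ebf1 and not that Runx1 was absent there.

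Pax5 carried the highest-scoring peak of the 3 windows. All 3 of its peaks stood next to each other within 4.75 kb, at 73.5 to 75.2% of the window's length counted from its lower edge. The middle peak, at chr4:44685025-44686534, was 1510 bp wide and had a score of 543.06. It ranked 190 in the list (2.80% of all peaks) and 11 of the 410 peaks of chromosome 4. The peak below it, at chr4:44683653-44684937, was 1285 bp wide and scored 74.43, at rank 4877. The peak above it, at chr4:44687520-44688397, was 878 bp wide and scored 144.22, at rank 2501. A strong peak was thus flanked by a weak one and one of middling score, with a ratio of 7.30 between the highest and the lowest.

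The Pax5 peaks were packed closely. Gaps of 87 and 985 bp separated them, and peaks covered 77.4% of the 4745 bp from the first to the last. Grouping peaks whose neighbouring midpoints lie within 20 kb gives 265 groups of exactly 3 in the list, with a median length of 14.3 kb. Of these, 26 (9.81%) were as short as the Pax5 group and 39 (14.7%) had a top score as high. The remaining part of the Pax5 window held no peak. The nearest peaks outside were 654 kb below the group, at chr4:44028757-44029446 with a score of 64.12, and 222 kb above it, at chr4:44910354-44911419 with a score of 444.07. In GRCm38.p6 the gene is read on the minus strand, towards lower coordinates, so the group lay nearer to the end of the window at which transcription starts, 52.0 to 55.7 kb from that edge.

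**Figure D2:**
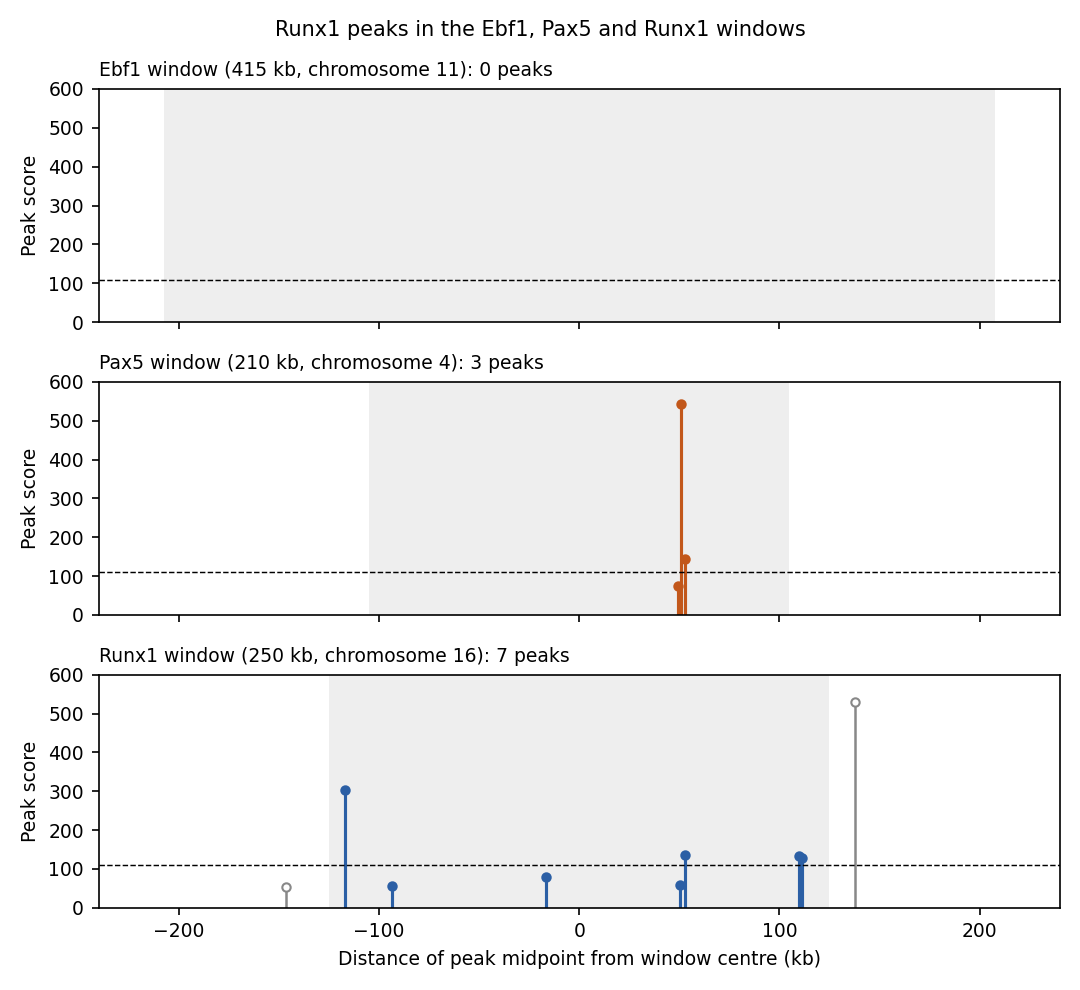
Peak score (y axis, the authors' caller's score) against the distance of the peak midpoint from the window's centre (x axis, kb) for the 3 windows, shaded grey. Filled points are peaks in the window, open grey points are the nearest peaks outside that fit the axis, and the dashed line is the list's median score of 109.54. The Ebf1 window is empty, the 3 Pax5 peaks form 1 group with a top score of 543.06, and the 7 Runx1 peaks are spread over the window at 303.17 or less.

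Runx1 was the gene with the most peaks, and they were spread along the window in 5 places. The highest, at chr16:92597476-92598378, was 903 bp wide and scored 303.17, at rank 797 of the list (11.7%) and rank 23 of 263 on chromosome 16. It stood 7.93 kb inside the lower edge of the window, the end towards which the gene is read, since Runx1 too is on the minus strand in GRCm38.p6. The next, at chr16:92621058-92621844, was 787 bp wide and scored 56.6, at rank 6155. Both were single peaks, 22.7 kb apart.

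In the middle of the window a single peak at chr16:92698078-92698784 was 707 bp wide and scored 80.31, at rank 4577. A pair followed 66.2 kb above it. Its first peak, at chr16:92764935-92765651, scored 57.55 (717 bp, rank 6076), and its second, at chr16:92767593-92768230, scored 136.47 (638 bp, rank 2689). The pair was 1941 bp apart, and its stronger peak was the narrowest of the 7.

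The last pair lay 13.7 and 15.2 kb inside the upper edge of the window, the end from which the gene is read. Runx1 has an upstream and a downstream annotated start in GRCm38.p6, and neither was placed in mm9. Its peaks, at chr16:92824002-92825679 and chr16:92825756-92826829, were almost equal in score, 132.92 and 129.35 (ranks 2750 and 2848), and were 1678 and 1074 bp wide. Only 76 bp separated them, so that together they covered 97.3% of 2828 bp. Of the 825 groups of exactly 2 peaks in the list, 154 (18.7%) were as short and 566 (68.6%) had a top score as high. The members of this pair were thus ordinary in score and close together. Over the whole Runx1 window the ratio between the highest and lowest score was 5.36.

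The peaks next to the window edges show what the choice of the Runx1 window leaves out. Just outside its upper edge, 12.3 kb away and 25.5 kb above the last pair, stood a peak at chr16:92852339-92853141 with a score of 529.41, rank 198 in the list. It scored higher than each of the 7 peaks inside. Just outside the lower edge, 20.9 kb away, a peak at chr16:92568535-92569052 scored 54.72, rank 6331. With 50 kb added on each side the window held 9 peaks, and the highest score became 529.41.

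By score, the 10 peaks lay between 56.6 and 543.06, within a list that ran from 50.03 to 1955.87, and between ranks 190 and 6155. Their median score was 131.14, against 109.54 for all 6792 peaks. Of the 10 peaks, 6 scored at least 100 (2 at Pax5 and 4 at Runx1), against 55.0% of the list, and 2 scored at least 200 (1 at each gene), against 23.6%. Neither share stands far from that of the list. At the weak end, 2 of the 7 Runx1 peaks scored under 60, as did 13.5% of the list, close to its lowest score of 50.03. The median score was 144.22 for the 3 peaks of Pax5 and 129.35 for the 7 peaks of Runx1, and their ranges overlapped.

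**Figure D3:**
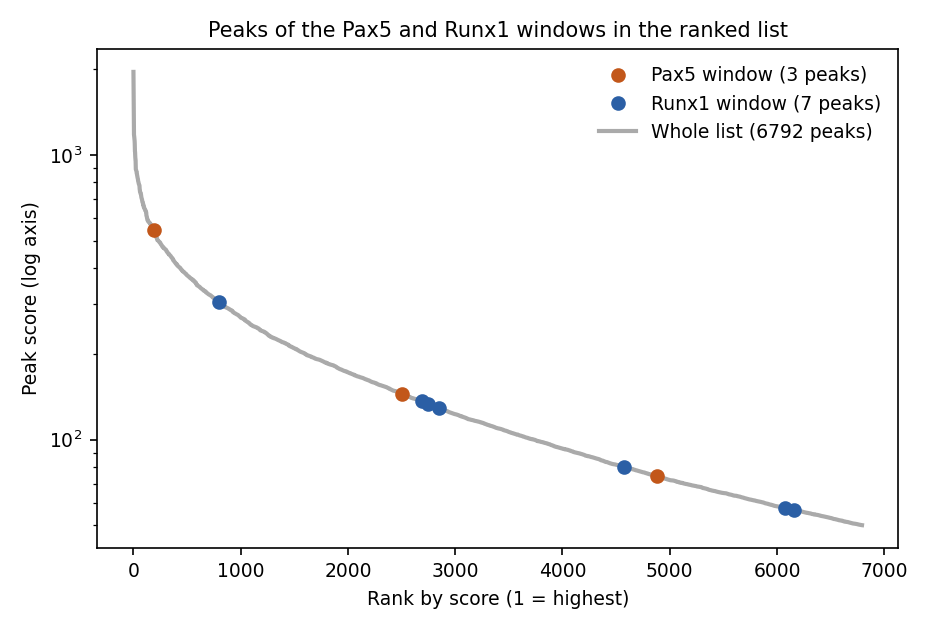
Peak score (y axis, log scale) against rank by score (x axis) for the whole list (grey line) with the peaks of the Pax5 and Runx1 windows as points. A Pax5 peak stands at rank 190 and a Runx1 peak at rank 797, while the others lie between ranks 2501 and 6155.

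Some of these peaks were wide for their score. The median width of the 10 was 890.5 bp, against 787 bp in the list, and 6 of 10 were wider than the list's median, as 50.0% of all peaks are. The 1678-bp peak of Runx1 ranked 46 of 6792 by width. Among the 584 peaks with a score within a factor of 1.1 of its own, 6 (1.03%) were as wide, itself included, and their median width was 811.5 bp. The 1285-bp peak of Pax5, with a score of only 74.43, was matched by 11 of 827 peaks of like score (1.33%), whose median width was 726 bp. The 1510-bp top peak of Pax5 was less unusual, since 13 of 115 peaks of like score (11.3%) were as wide. The single Runx1 peaks stood out less. For the strongest of them, 141 of 302 peaks of like score (46.7%) were as wide. The share was 23.7% for the 787-bp single peak and 61.8% for the 707-bp one. In the Runx1 pair of 717 and 638 bp it was 42.3% and 85.5%. For the 1074-bp peak of Runx1 it was 9.37%, and for the 878-bp peak of Pax5 31.9%.

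**Figure D4:**
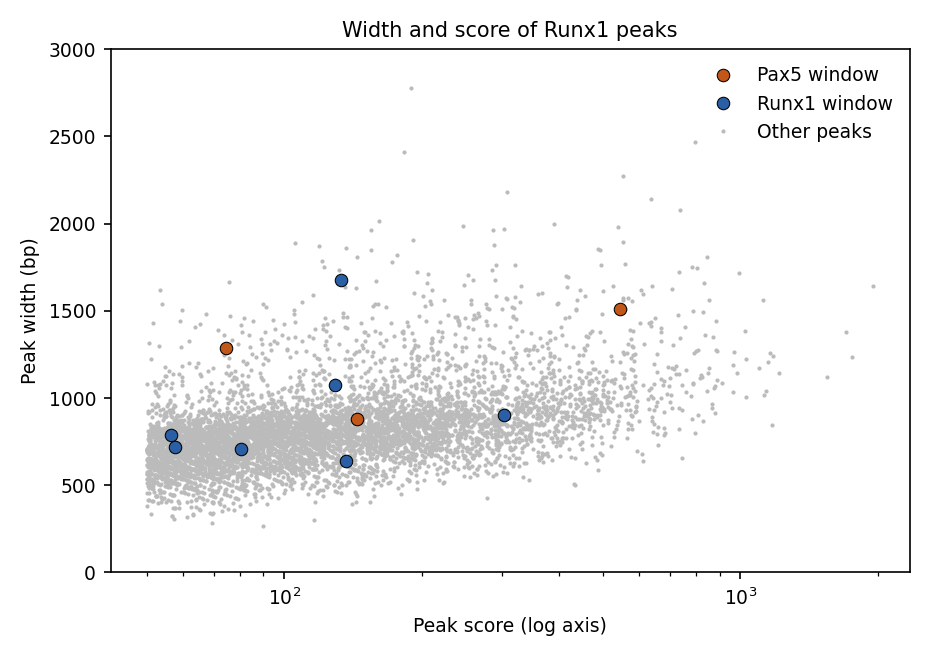
Peak width (bp, y axis) against score (log axis) for the Pax5 and Runx1 windows (coloured) and the other peaks of the list (grey); 1 peak wider than 3000 bp is not drawn. The 1678-bp Runx1 peak and the 1285-bp Pax5 peak stand at the upper side of the cloud at their scores.

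Both wide peaks adjoined a neighbour within 100 bp. In the list, 134 of 6792 peaks (1.97%) had so close a neighbour, and 4 of them were among the 10 at these genes, namely the 2 lower peaks of Pax5 and the last pair of Runx1. The width of such peaks had a median of 789 bp, compared with 787 bp for the others, but 31 of 134 (23.1%) were at least 1000 bp wide, compared with 14.2% of the others. The 4 at these genes were 1074 to 1678 bp wide. When intervals within 500 bp were joined, the Pax5 pair became 1 region of 2882 bp, chr4:44683653-44686534, and the Runx1 pair 1 region of 2828 bp, chr16:92824002-92826829. By width these ranked 12 and 15 of the 6579 regions left after joining. Most of those regions are single peaks, so a region made of 2 wide peaks ranks high by its making. No rank among the truly joined regions alone was taken. The width ranks after joining were looked up once the near-touching pairs had been seen.

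Seen from a wider distance, the stretch around Ebf1 still held the fewest peaks. With 500 kb added on each side, 14 peaks (11.2 per Mb) lay around Runx1, 11 (9.09 per Mb) around Pax5 and 0 around Ebf1. With 1000 kb added, the numbers were 23, 16 and 5, and the highest scores 817.71, 815.89 and 155.06. Runx1 and Pax5 thus lay in stretches with more peaks per Mb than the list's mean of 2.68. The stretch around Ebf1 reached 2.07 per Mb only at the widest setting, against 4.55 per Mb over chromosome 11. Each wider stretch includes the window's own peaks, 7 at Runx1 and 3 at Pax5. The order of Runx1 and Pax5 is therefore partly carried over from the windows and shows no difference in the added sequence. These wider stretches hold other genes, and which peak belongs to which gene was not determined.

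**Figure D5:**
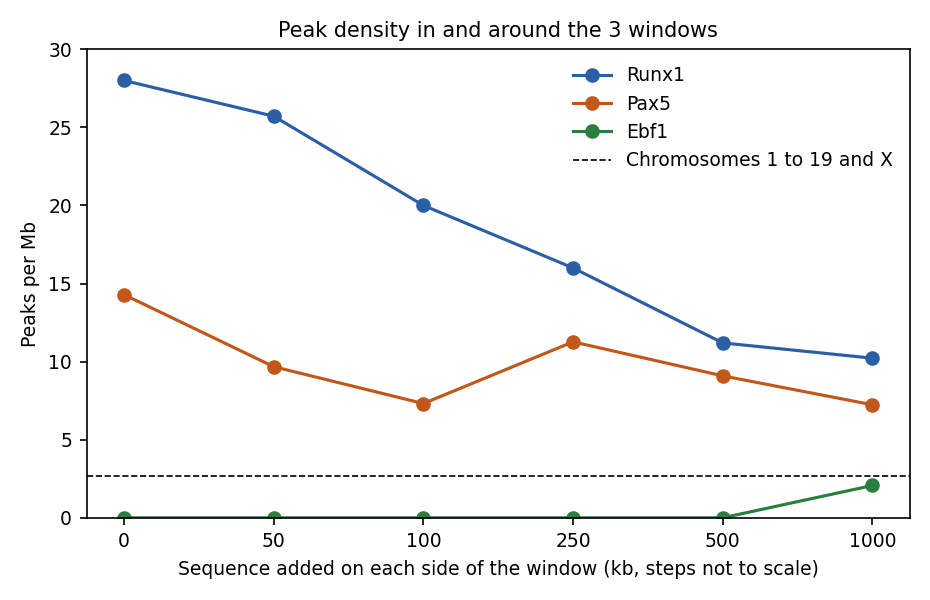
Peaks per Mb (y axis) in the windows of Runx1, Pax5 and Ebf1 as 0 to 1000 kb are added on each side (x axis, steps not to scale), with the mean over chromosomes 1 to 19 and X as a dashed line. Density around Runx1 declines from 28.0 per Mb towards 10.2, around Pax5 it lies between 7.24 and 14.3, and around Ebf1 it is 0 up to 500 kb.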

How the data were processed

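The file analysed was 1 deposited list of peaks with chromosome, start, end and a score. Per the file header it was made from the Runx1 and IgG libraries together. MACS 1.4.01, Bowtie 0.12.8, CASAVA 1.8.2 and the mouse build mm9 are listed, without settings, in the submitters' processing notes. The score is the authors' deposited value, its scale is not stated, and it was compared only within the list. Peaks called strong or weak here are so by this score alone, which is not a measure of binding strength. Fold enrichment, summits, read numbers and duplicate handling are not stated. Starts were printed counting from 1.

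A peak belonged to a window if its midpoint lay in it. Tiles covered the span between the outermost peaks of each of chromosomes 1 to 19 and X. Counts have exact Poisson 95% intervals. Genes named are the 3 of the rule, with all their peaks and the nearest peak on each side. The counting was checked on simulated data. The windows, the alternatives and the motifs were chosen with earlier results of these data known. The planned counts at other B-cell regulators were not run, since they need mm9 annotation. No text of the study's paper was used. The software was scipy 1.17.1, pandas 2.3.3, numpy 2.4.6 and matplotlib 3.10.9 under Python 3.11.15.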

Additional observations from a re-analysis of the deposited data

How the results depend on the processing

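The empty Ebf1 window held 0 peaks in each of the 7 alternatives run, and its share of tiles with at least as many peaks was 100% by construction. The Pax5 number was 1 against 3 when intervals within 2 kb were joined, because its gaps of 87 and 985 bp are then bridged, and 2 after joining within 500 bp, with a score of at least 100 and among the 3397 highest-scoring peaks; its highest score of 543.06 stayed in all 7. The Runx1 number was 4 against 7 with a score of at least 100, 4 among the 3397 highest-scoring peaks and 4 with the window narrowed by 20 kb on each side, which drops the peaks nearest the edges. Its highest score of 303.17 became 529.41 with the window widened by 50 kb and 136.47 with it narrowed, so both values depend on where the window ends. The share of tiles with at least as many peaks was 7.01% at Pax5, 26.5% among tiles with a peak and 13.1% after joining within 500 bp. At Runx1 it was 0.908%, against 3.07% among tiles with a peak, 1.90% with a score of at least 100 and 1.43% after joining within 500 bp. Starting the tiles later moved neither beyond its 95% Wilson interval. No paired analysis was possible because each arm has 1 library, and no replicate could be left out. Since read numbers are not given, it is unknown how weak a site could be and still be listed.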
